A study of Homo sapiens and Mus musculus with 6 samples.

Results

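In promoter Capture Hi-C of mouse embryonic stem cells, 154 captured promoter fragments were each called in contact with 40 or more other HindIII fragments of their own chromosome. They were 0.952% of the 16178 promoter fragments ("baits") with at least 1 such *cis*-chromosomal call, and together they held 8035 of the 101262 *cis* calls, or 7.93%. The members were chosen by this number of calls. Another 24 baits that reached 40 calls carried Hist1h histone or Hox homeobox symbols (7 and 17 baits, 42 to 96 calls) and were set aside by name, so 178 baits (1.1%) passed the threshold in all. Baits close to those clusters under other names were kept: 6 members had the start of a Hox gene within 200 kb (Gm17649, Gm16258, Mir196a-2, 2700086A05Rik, Mir196b and Evx1) and 5 had a Hist1h gene start within 200 kb (Zfp184, Prss16, Abt1, Btn1a1 and Btn2a2).

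Capture Hi-C joins crosslinked DNA fragments that lie near each other in the nucleus, and pulls down the ligated pairs that carry a promoter. The mouse data came from J1 embryonic stem cells of strain 129S4/SvJae, with 2 biological replicates of Capture Hi-C and 1 Hi-C library made without capture. The comparison cells were the human B-lymphocyte line GM12878, with 3 biological replicates of Capture Hi-C. The labels name no treatment or genetic change in any sample, and the mouse cells were grown on fibroblast feeders that were depleted at harvest. CHiCAGO was run on the pooled evidence of a cell type's replicates, so that no spread between replicates exists for any value below and no test was made. Each call has a read count, which is a weighted mean over the replicates rounded to whole reads, and a score, for which 5 is the lowest value listed. Intervals in parentheses are 95% intervals that cover counting alone, and calls to neighbouring fragments are not independent of each other.

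As background, a promoter may contact enhancers and other promoters within its own chromatin domain, and Hi-C signal falls steeply with distance along the chromosome. In embryonic stem cells, promoters of silent developmental regulators (homeobox, paired box, T-box, forkhead and similar factors) are known to be bound by Polycomb complexes and to be able to meet over very long distances. Gene-dense, GC-rich regions form active compartments in which many promoters lie close together.

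Members of both kinds are shown here by the 250 bases upstream of their transcription start, because the contacts described below join these promoters. The first 4 belong to promoters with high-scoring contacts over long distances, and the last 2 to promoters in a dense contact region of chromosome 7. Each sequence reads 5′ to 3′ in the direction of transcription, from the mm9 assembly, with every CG dinucleotide in capitals. The Pax3 bait, a fragment of 798 bases, ends at 78193733, so that most of the Pax3 window lies in the next HindIII fragment.
Fev, mm9 chr1:74931994-74932243, minus strand: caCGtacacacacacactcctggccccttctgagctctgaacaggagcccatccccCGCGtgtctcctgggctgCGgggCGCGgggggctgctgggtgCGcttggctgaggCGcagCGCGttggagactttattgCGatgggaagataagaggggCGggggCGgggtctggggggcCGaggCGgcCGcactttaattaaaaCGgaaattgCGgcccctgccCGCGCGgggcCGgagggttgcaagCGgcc
Pax3, mm9 chr1:78193710-78193959, minus strand: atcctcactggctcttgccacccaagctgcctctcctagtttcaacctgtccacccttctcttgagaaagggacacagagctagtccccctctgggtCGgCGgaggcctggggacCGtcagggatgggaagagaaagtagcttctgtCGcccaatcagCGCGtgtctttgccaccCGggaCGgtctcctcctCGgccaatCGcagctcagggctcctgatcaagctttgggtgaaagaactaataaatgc
Tbx3, mm9 chr5:120120428-120120677, plus strand: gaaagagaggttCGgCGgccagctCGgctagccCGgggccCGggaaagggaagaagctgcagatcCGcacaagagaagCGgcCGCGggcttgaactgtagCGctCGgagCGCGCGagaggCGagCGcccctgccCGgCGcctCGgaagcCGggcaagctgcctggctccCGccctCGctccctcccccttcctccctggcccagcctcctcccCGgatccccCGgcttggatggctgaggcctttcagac
Foxd2, mm9 chr4:114581504-114581753, minus strand: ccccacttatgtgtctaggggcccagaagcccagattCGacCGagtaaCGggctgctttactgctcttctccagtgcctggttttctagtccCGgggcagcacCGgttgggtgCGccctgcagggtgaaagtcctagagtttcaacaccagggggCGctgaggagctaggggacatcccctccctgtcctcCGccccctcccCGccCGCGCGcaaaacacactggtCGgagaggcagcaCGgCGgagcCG
Arhgap33, mm9 chr7:31320080-31320329, minus strand: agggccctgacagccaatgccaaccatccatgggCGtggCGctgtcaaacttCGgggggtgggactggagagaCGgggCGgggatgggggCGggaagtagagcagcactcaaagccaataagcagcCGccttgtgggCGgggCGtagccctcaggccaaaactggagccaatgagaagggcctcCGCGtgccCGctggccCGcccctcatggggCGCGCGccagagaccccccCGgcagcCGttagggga
4930479M11Rik, mm9 chr7:31456611-31456860, minus strand: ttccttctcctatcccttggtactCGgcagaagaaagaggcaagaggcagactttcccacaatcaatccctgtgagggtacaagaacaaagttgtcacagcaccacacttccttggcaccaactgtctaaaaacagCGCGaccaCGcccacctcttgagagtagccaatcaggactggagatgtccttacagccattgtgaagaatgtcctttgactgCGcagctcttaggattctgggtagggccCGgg

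The letters CG read the same on both strands. Each window was taken upstream of an annotated transcript start, which for baits named for small nucleolar RNAs or microRNAs may not be the promoter start. Among the 153 members with a window of this kind, the median window held 13 CG, against 8 over the windows of all baits, and 92 windows (60.1%, 52.2 to 67.5%) held 10 or more, against 45.9% of all 15927 windows. Baits with 20 to 39 calls stood nearer to the members, with 55.5%. Of the 19 windows at members with a gene of a developmental list (given below), 17 held 10 or more CG (89.5%, 68.6 to 97.1%), against 68.7% for all developmental baits. Of the windows printed above, those of Tbx3 (24 CG) and of Fev (23), a gene in none of the lists, held the most. That of 4930479M11Rik held the fewest, with 6.

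The median member had 48 *cis* calls (46 to 50) and the range ran from 40 to 113, against a median of 3 over all baits. The 10 members with the most calls were Itgb1bp1 with 113, Abt1 with 112, SNORD121A.1 with 97, 4930479M11Rik with 96, Fev with 92, 2410015M20Rik with 89, Gm17649 with 87, Ankrd56 with 76, SNORD121A.2 with 75 and Arhgap33 with 74. Itgb1bp1 encodes a protein that binds the integrin tail, Abt1 an activator of basal transcription, and Fev an ETS factor of serotonergic neurons. Many calls fell on adjacent fragments. When each run of adjacent called fragments was counted as 1, the median member had 25 runs. At the threshold, 13 baits had exactly 40 calls (Acer1, Ceacam10, Gm11570, Gm12405, Lin37, Lonp1, Lrg1, Mfsd2a, Pax9, SNORA70.5, Scarna10, Tal1 and Tmem59l), and 11 baits just outside had 39 (AC159335.1, Bcan, Calr, G630016D24Rik, Gm14396, Pld2, Sbsn, Sorbs3, Tlx1, U6.488 and Vps37c). The stretch contacted (defined below) had a median of 489.115 kb at 40 calls (241.773 to 5991.44 kb) and of 414.432 kb at 39 (326.173 to 34145.9 kb). With spreads this wide, these few baits cannot show whether the threshold marked a step in this measure.

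**Figure D1:**
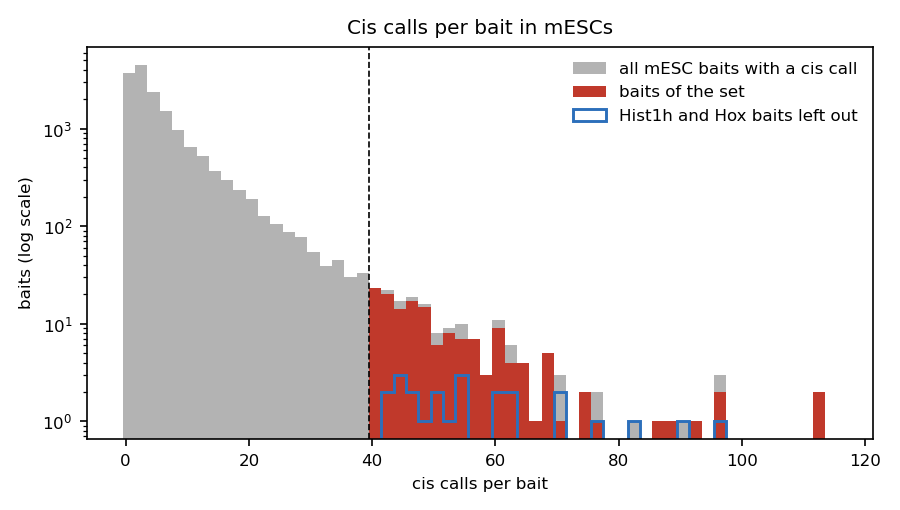
Number of cis calls per bait (horizontal axis, dashed line at the threshold) against the number of baits (vertical axis, log scale), with grey bars for all baits with a cis call, red bars for the 154 members and blue outlines for the Hist1h and Hox baits set aside. The members, from 40 to 113 calls, form the end of a continuous distribution whose median is 3.

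The members lay on 18 chromosomes, with 25 on chromosome 7, 19 on chromosome 4 and 12 on chromosome 17, and none on chromosomes 10 and X. With members less than 1 Mb apart joined, they formed 58 loci: 26 held a single member, and 24 with 3 or more held 112 of the 154. By gene type, 126 members were named for protein-coding genes, and 12 for small nucleolar RNAs. A name marks the gene that the capture design gave to the fragment, and says nothing about which gene the contacts serve.

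The largest loci by number of members were gene-dense regions. On chromosome 7, between 31204956 and 31844113, lay 11 members: Nfkbid, Aplp1, Arhgap33, Lin37, Wbp7, Zbtb32, 4930479M11Rik, Dmkn, Ffar3, Gm17077 and Fxyd7. They include an inhibitor of NF-kappaB (Nfkbid), a relative of the amyloid precursor protein (Aplp1), a histone H3 lysine methyltransferase (Wbp7) and a subunit of the cell-cycle repressor DREAM (Lin37). Another 11 lay on chromosome 4, between 40893586 and 41670729: Bag1, AL837521.1, Aqp7, SNORD121A.1, SNORD121A.2, Kif24, 1110017D15Rik, Gm12406, Gm12405, 2810432D09Rik and Dctn3. On chromosome 1 a locus of 7 (Wnt6, Fev, Cryba2, Mir375, Ihh, 1810031K17Rik and Accn4) holds a pair of signalling ligands, Wnt6 and the cartilage hedgehog Ihh, beside a lens crystallin and a microRNA of pancreatic islets. On chromosome 19 a locus of 6 comprised 1700092M07Rik, Bscl2, Ints5, Rom1, Tut1 and Eef1g.

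There were 6 further loci of 5 members. These were SNORA70.5, Gm1679, Noc4l, U6.373 and SNORA49.1 on chromosome 5; Usp5, Gnb3, SCARNA11.2, Gapdh and Scarna10 on chromosome 6; and Gltscr2, Zfp541, Napa, Kptn and Meis3 on chromosome 7. Chromosome 11 held Gm16040, 6030455H03Rik, Efnb3, Fxr2 and 2810408A11Rik. Chromosome 17 held Brd2, D17H6S56E-3, Ly6g5b, RP23-115O3.9 and SNORA38.2, in the major histocompatibility region, and Lrg1, Safb2, 2410015M20Rik, Lonp1 and Acer1. The 5 loci of 4 members were 9130410C08Rik, Foxd2, Foxe3 and Tal1 on chromosome 4; Cd3eap, Ckm, Clasrp and Gm20512, and Cadm4, Ceacam10, Gsk3a and Erf, on chromosome 7; Prkaca, Palm3 and Il27ra with a member not named here on chromosome 8; and Krt78, Gm17649, Gm16258 and Mir196a-2 on chromosome 15.

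The 9 loci of 3 members were Kcnn3, Il6ra and Npr1 on chromosome 3, 2700086A05Rik, Mir196b and Evx1 on chromosome 6, and Tm6sf2 and Tmem59l with a member not named here, and Snord111, SNORD111.1 and Cog4, on chromosome 8. Nek8, BC030499 and Spag5 lay on chromosome 11, Itgb1bp1, Iah1 and Ywhaq on chromosome 12, and Abt1, Btn1a1 and Btn2a2 on chromosome 13. The remaining ones were 2700060E02Rik, 1810063B07Rik and Kcnk16 on chromosome 14, and Panx2, Tubgcp6 and Plxnb2 on chromosome 15. Pairs of members were U6.634 and Pacsin3, Hist2h3b and U1.123, Mfsd2a and Nt5c1a, Tbx3 and Lhx5, Zfp184 and Prss16, AC159323.1 and Chd8, Wnt10b and Wnt1, and Tbx1 and Sept5. Members alone at their locus, apart from 1 not named here, were Pax3, Kcnj9, Nrarp, Lyrm2, Fam166b, Ankrd56, Tcf7l1, Bhlhe40, Chmp2a, SNORD105.1, Robo3, Tbx18, Rasgrf1, Nradd, Hic1, Gm11570, Pax9, Slc6a18, Pxk, Zic2, Dll1, Gabbr1, snoU13.14, Pcdh1 and Pax2.

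The surroundings of the members were gene-rich, a property that the calls did not enter. Within 500 kb on either side the median member had 32 protein-coding gene starts, against 16 for all baits and 31 for the baits with 20 to 39 calls. GC content there was 46.7% against 44.8% for all baits, and the number of HindIII fragments was 273.5 against 298. The baits themselves had the usual length, with a median of 5716 bases against 5739.5. The exceptions lay at both ends: Tbx18 had 2 genes within 500 kb, Tbx3 had 3 and Pax9 had 4, while Gm11570 had 83. Assembly gaps of 10 kb or more lay within 500 kb of 13 members (8.44%, against 4.61% of all baits), among them Wnt6, Fev, Cryba2, Mir375, Ihh, 1810031K17Rik and Accn4 on chromosome 1 and Itgb1bp1, Iah1 and Ywhaq on chromosome 12. The part of these gaps in the counts was not tested.

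In the 7 gene lists of developmental factors and signalling molecules, 20 members carried a listed gene (13.0%, 8.57 to 19.2%), against 2.87% of all baits with a call and 7.46% of those with 20 to 39 calls. The homeobox and paired box genes outside the Hox clusters gave 6 members of 133 baits (Pax3, Lhx5, Evx1, Meis3, Pax9 and Pax2), and the T-box genes 3 of 15 (Tbx3, Tbx18 and Tbx1). Signalling ligands and their regulators gave 6 of 133 (Wnt6, Ihh, Efnb3, Wnt10b, Wnt1 and the Notch ligand Dll1). Forkhead genes gave 2 of 34 (Foxd2 and Foxe3), basic helix-loop-helix genes 2 of 52 (Tal1, a master factor of blood formation, and Bhlhe40), developmental zinc finger genes 1 of 82 (Zic2) and Sox genes 0 of 16. In the other lists, olfactory and vomeronasal receptors gave 0 of 472 baits, ribosomal proteins 0 of 51, keratins 1 of 75 (Krt78), protocadherins 1 of 26 (Pcdh1), Zfp genes 2 of 233 (Zfp541 and Zfp184), histones outside Hist1 1 of 15 (Hist2h3b), microRNAs 3 of 212 (Mir375, Mir196b and Mir196a-2) and the pluripotency list 1 of 33, which was Tbx3 again. The remaining 126 members were in none of the 15 lists.

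The size of the contacted domain was taken as the shortest stretch of the chromosome that held at least 90% of the midpoints of a bait's called fragments. Its median was 507.945 kb over the members (466.75 to 554.098 kb), against 435.38 kb for the baits with 20 to 39 calls and 1899.67 kb for the Hist1h and Hox baits set aside. The spread was wide, from 234.935 kb to 35260.3 kb. The narrowest were Chd8, a chromatin remodeller, with 234.935 kb, Gm12406 with 235.739 kb and BC030499 with 239.531 kb. The widest were 2700086A05Rik with 35260.3 kb and Mir196b with 32536.4 kb, both beside the Hoxa genes. A stretch of 1 Mb or more was seen for 32 members (20.8%, 15.1 to 27.9%), against 14.2% of the baits with 20 to 39 calls.

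A compact and a wide kind of profile can be described with 1 Mb as the boundary. In the 122 members under 1 Mb, the median stretch was 466.067 kb, and 40.9% of the HindIII fragments inside it were called. Over all 154 members the called share ran from 0.389% to 71.2%, the upper value being that of 1110017D15Rik. In the 32 members at or above 1 Mb, the median stretch was 3548.42 kb and 4.22% of its fragments were called, in clusters with long gaps between them. The median of the highest score of a bait was 20.8 for the compact members and 51.5 for the wide ones. Of the compact members 6 carried a developmental gene, and of the wide members 14. Of the wide members 8 had a Hox or Hist1h gene start within 200 kb.

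**Figure D2:**
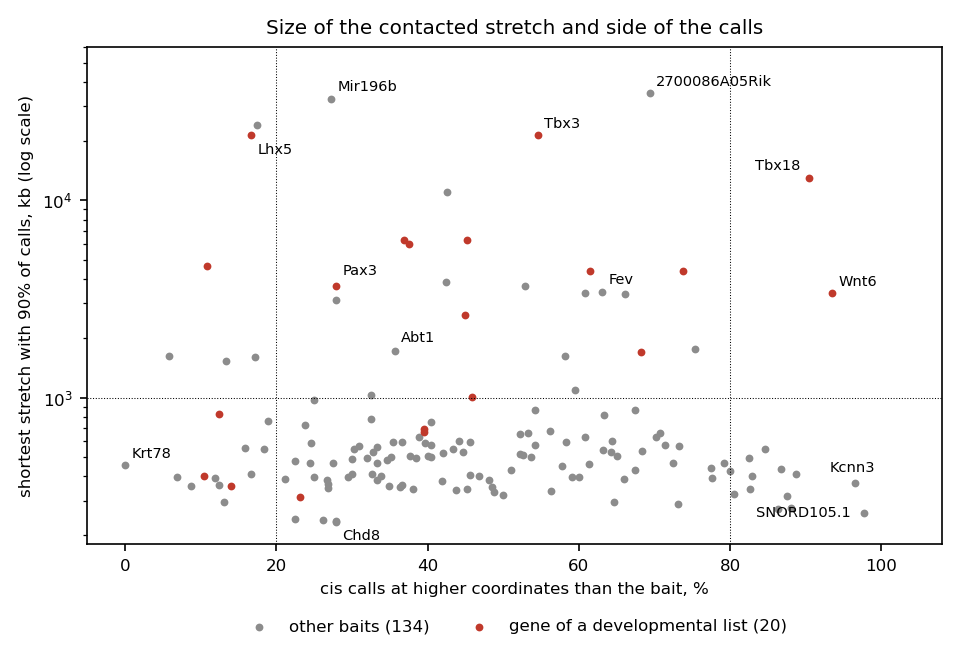
Each point is a member, placed by the percentage of its cis calls at higher coordinates than the bait (horizontal axis, dotted lines at 20 and 80%) and by the shortest stretch with at least 90% of its calls (vertical axis, kb, log scale, dotted line at 1000 kb). Red marks the 20 members with a developmental gene, of which 14 lie above 1000 kb, and grey the 134 others, of which 18 do.

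By distance, 2910 of the 8035 calls (36.2%) lay under 100 kb from the bait, 4239 (52.8%) between 100 and 500 kb, 276 (3.43%) between 500 kb and 1 Mb and 610 (7.59%) beyond 1 Mb. Over all baits 3.39% of the calls lay beyond 1 Mb. Beyond 10 Mb there were 112 member calls (1.39%, against 0.685%). The median distance, 145.915 kb, was close to that over all calls, 139.062 kb. The long calls were carried by few promoters: 88 members had none, and 20 members with 10 or more held 476 of the 610. They also rested on fewer reads, with a median of 6 reads and a score of 10.115, against 15 reads and 7.76 for calls up to 1 Mb.

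**Figure D3:**
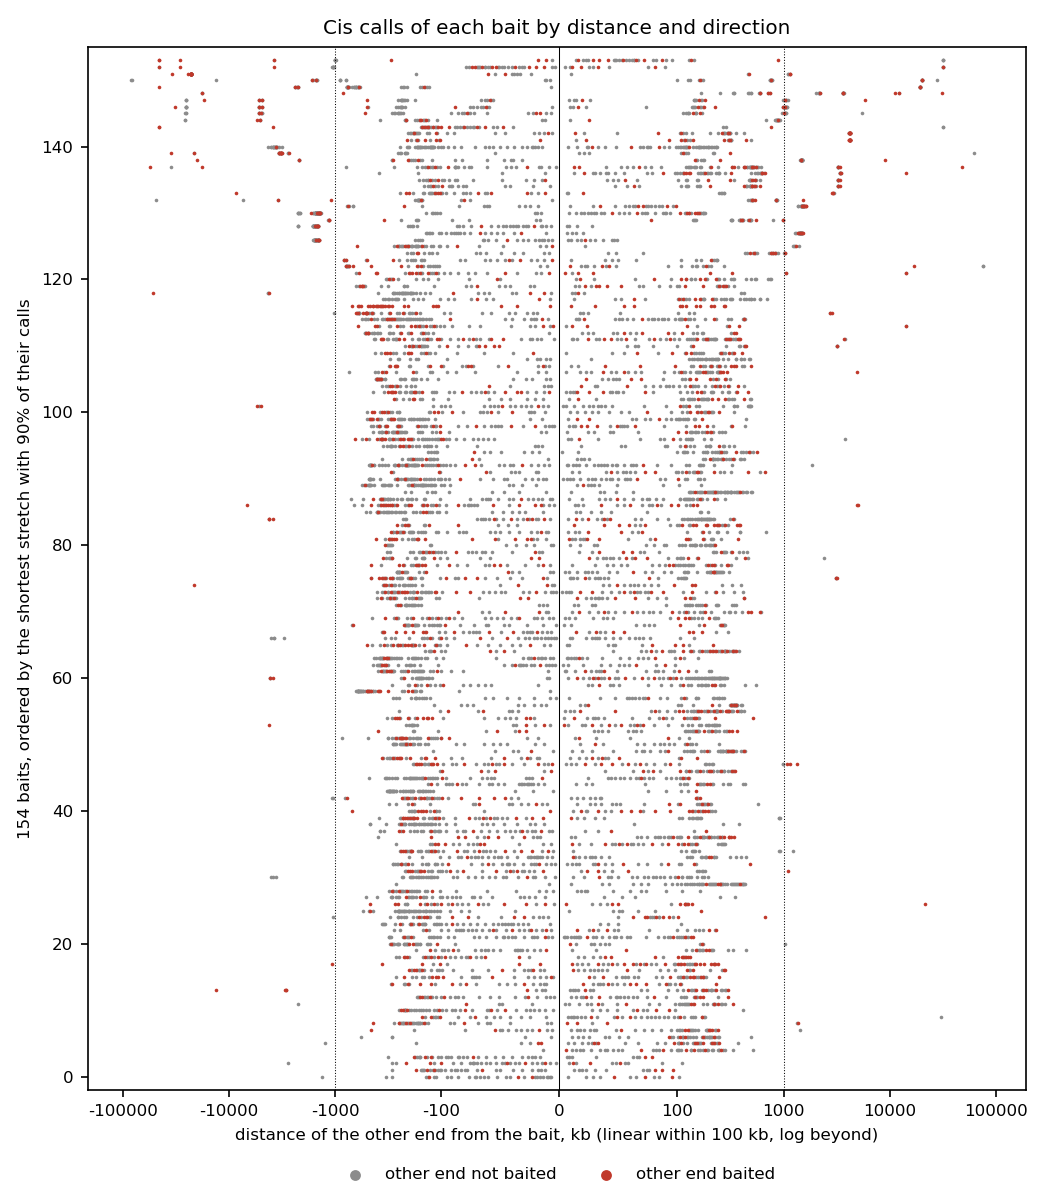
Each point is a cis call, placed by the distance and side of the called fragment from the bait (horizontal axis, kb, linear within 100 kb and log beyond, dotted lines at 1000 kb) in the row of its member (vertical axis, 154 members ordered by stretch from narrow to wide). Red points are baited fragments and grey points unbaited ones, and the 610 calls outside the dotted lines belong mostly to the members in the upper rows.

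As to direction, 3698 of the 8035 calls (46.0%) lay at higher coordinates than the bait. The median member had 42.99% of its calls there, and 41 members had between 40 and 60%. At least 80% of the calls fell on 1 side for 34 members (22.1%, 16.3 to 29.3%), of which 15 pointed to higher and 19 to lower coordinates. Among baits with 20 to 39 calls the share was 33.1%, and with runs of adjacent fragments counted as 1 it was 13.0% of the members. The share depended on the settings, with 39.6% for calls of a score of at least 10 and 5.19% at a limit of 90% of the calls. The highest shares at higher coordinates were those of SNORD105.1 with 97.7%, Kcnn3, a potassium channel gene, with 96.5% and Wnt6 with 93.4%. At lower coordinates stood Krt78 with all of its 46 calls, so that 0% lay higher, then Btn2a2 with 5.80% higher and Pcdh1 with 6.82%. Read along the strand of the gene, the median member had 57.65% of its calls downstream of its start. At least 80% of the calls lay downstream for 23 members and upstream for 11 (Accn4, Mfsd2a, Lhx5, Evx1, Bhlhe40, Gnb3, Gltscr2, Robo3, Tbx18, Zic2 and Lrg1).

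Of the 8035 calls, 1727 (21.5%, 20.6 to 22.4%) ended on another baited promoter fragment, against 36.5% of all *cis* calls. With the threshold for members at 30 calls the share was 23.9%, and at 50 calls it was 18.3%. The range ran from 0% for Slc6a18, an amino acid transporter gene with 41 calls, to 100% for Gm11570. Low shares were also those of Dll1 with 2.08% and Pcdh1 with 2.27%. Gm11570 lies in the keratin and keratin-associated protein cluster of chromosome 11, and its 40 calls, with a median of 7 reads, all ended on baited fragments: 17 named for keratin genes, 12 for keratin-associated protein genes and 10 by predicted gene symbols, with A830036E02Rik as the last. Next in order came Wnt10b with 57.1% and D17H6S56E-3 with 54.3%.

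The 8035 calls ended on 4406 distinct fragments, of which 1792 (40.7%, 39.2 to 42.1%) were called from 2 or more members, 935 from 3 or more and 252 from 5 or more. Since calls were counted per member, members with neighbouring baits counted the same contacted region again. Within loci, 255 of the 271 pairs of members shared a called fragment, with a median of 26 shared, and 189 pairs (69.7%) were called with each other. SNORD121A.1 and SNORD121A.2, which lie 5.012 kb apart, shared 64 fragments, or 66.0% of the calls of the former and 85.3% of those of the latter. Abt1 and Btn2a2 shared 62, or 55.4% and 89.9%. Between loci sharing was rare, with 154 of the 1792 shared fragments called from more than 1 locus. Of the fragments shared by members 22.3% were baited, and of those called from 1 member 16.9%.

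The most shared fragment was the bait of 4930479M11Rik on chromosome 7, 31452166 to 31459191, a fragment that holds exons of that gene and was called from all 10 other members of its locus, on 12 to 34 reads. Called from 9 members each were the baits of Alkbh6, Wbp7 and Zbtb32, and 4 fragments without a bait, all in the same locus. This locus made 666 calls to 183 distinct fragments, of which 139 were shared. Within it Nfkbid and Arhgap33 shared 45 fragments, while Nfkbid and Fxyd7, at the 2 ends, shared 3. The 11 members on chromosome 4 made 606 calls to 203 fragments, the 7 on chromosome 1 made 398 calls to 138 fragments, and the 6 on chromosome 19 made 306 calls to 84 fragments, 62 of them shared. Sharing was uneven within these loci. On chromosome 4, AL837521.1 and SNORD121A.1 shared 50 fragments, SNORD121A.2 and Kif24 shared 11 (14.7% and 19.3% of their calls), and Bag1 and Dctn3 shared 0. On chromosome 1, Wnt6 and Fev shared 48, and Ihh and 1810031K17Rik shared 11 (25.6% and 24.4%). On chromosome 1 the bait of Wnt10a was called from 8 members, Pax3 among them.

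**Figure D4:**
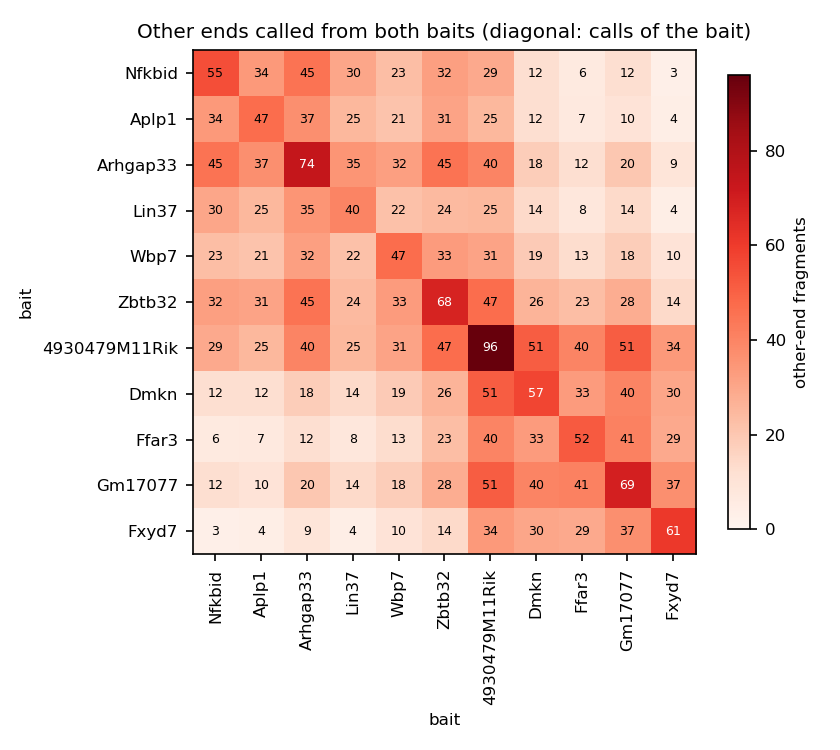
Number of fragments called from both baits, for each pair of the 11 members of the chromosome 7 locus in chromosomal order (both axes), with the number of calls of each bait on the diagonal and a colour scale from 0. Sharing falls from neighbours towards the corners, where Nfkbid and Fxyd7 share 3 fragments, and 4930479M11Rik shares 25 to 51 with every other member.

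Members were also called with each other. There were 396 calls between 210 pairs of members, which involved 124 of the 154, and 21 of these pairs joined different loci. The 5 pairs called over the longest distance were Ly6g5b with Lonp1, 21508.9 kb apart on chromosome 17 (4 reads), Gm20512 with Cadm4, 4967.41 kb apart (6 reads), Wnt10b with Mir196a-2, 4198.15 kb apart (12 reads), Wnt1 with Mir196a-2, 4188.59 kb apart (12 reads), and Wnt10b with Gm16258, 4170.56 kb apart (5 reads). The last 3 join the Wnt1 and Wnt10b promoters to the Hoxc region.

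The highest scores belonged to contacts of transcription factor promoters. Lhx5, a LIM homeobox gene of the forebrain, was called with Tbx3, a T-box gene of limb and heart that is also used in pluripotent cells, at 761.918 kb on 165 reads with a score of 170.81, the highest of all member calls. Called from the Tbx3 side, the same pair scored 34.38. It was followed by Pax3, a paired box gene of neural crest and muscle precursors, with Fev, which is in none of the gene lists, at 3261.22 kb on 37 reads with scores of 116.61 from Pax3 and 99.97 from Fev. The next was Lhx5 with an unbaited fragment beside Tbx3 (72 reads, 99.98), and the remaining call of the top 5 was Fev with an unbaited fragment 85.7 kb away (128 reads, 99.89). The sequences of Fev, Pax3 and Tbx3 printed above are upstream windows of these pairs. Every member of the chromosome 1 locus except 1810031K17Rik was called with the Pax3 region, in 28 calls to 7 fragments.

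The calls of the developmental members reached farther than those of the others, which describes the calls that chose them. Of the 20, 16 had a call beyond 1 Mb and 14 had a stretch of 1 Mb or more, with a median stretch of 3549.89 kb and 196 of 977 calls (20.1%) beyond 1 Mb. Of the 134 others, 50 had a call beyond 1 Mb and 18 a stretch of 1 Mb or more, with a median of 493.762 kb and 414 of 7058 calls (5.87%) beyond 1 Mb. The median of the highest score per bait was 61.3 and 21.6.

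Around Tbx3 and Lhx5 on chromosome 5, both promoters were called with Hrk, which encodes a pro-apoptotic BH3 protein, on 68 and 50 reads (scores 63.07 and 89.09). Both were also called with the region of Uncx, a homeobox gene of the somites, which lies 19.9 Mb from Tbx3 (7 calls, highest score 55.83) and 19.1 Mb from Lhx5 (9 calls, highest score 72.92). Lhx5 reached Gsx2, another homeobox gene, at 45.4 Mb in 1 call on 4 reads (score 5.82, near the lowest listed). The forkhead promoter Foxd2 on chromosome 4 was called with the bait of 3010003L10Rik, whose nearest protein-coding start is that of Dmrta2, a factor of the developing cortex, at 4.93 Mb on 29 reads (score 92.95). Foxd2 also contacted Cdkn2c, an inhibitor of cyclin-dependent kinases, at 5.24 Mb on 23 reads (70.6) and the homeobox gene Dmbx1 at 1.03 Mb on 31 reads (53.7). From the same locus, 13 calls of 9130410C08Rik, Foxd2, Foxe3 and Tal1 reached 7 unbaited fragments nearest to the start of Cdkn2a, 25.7 Mb from Foxd2.

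On chromosome 15, Wnt10b and Wnt1 reached the Hoxc region at 4.20 and 4.19 Mb in 12 and 14 calls, with highest scores of 30.37 and 18.04. The 3 members beside Hoxa (Mir196b, 2700086A05Rik and Evx1) together made 9 calls to the region of Vax2, a homeobox gene of the ventral retina, at 31.4 to 31.5 Mb, with a highest score of 56.84 from 2700086A05Rik. On chromosome 9, Tbx18, a T-box gene of heart and somites, was called with Rasgrf1, a neuronal exchange factor for Ras, at 2178.41 kb on 31 reads (67.56 and 73). Both reached the paired zinc finger genes Zic1 and Zic4, Tbx18 at 3.65 Mb in 9 calls and Rasgrf1 at 1.47 Mb in 19 calls. Pax2, a paired box gene of kidney and eye, reached Nkx2-3 at 1.15 Mb in 5 calls, and Zic2 reached Sox21 at 4.24 Mb.

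Other long contacts had no developmental gene at the bait. The 5 members that flank the Hist1 histone clusters on chromosome 13 made 192 of the 610 long calls (31.5%), with 63 from Abt1, 39 from Btn2a2, 35 from Btn1a1, 28 from Prss16 and 27 from Zfp184, and Abt1 itself was called with Zfp184 across 1478.51 kb. Itgb1bp1 made 18 such calls of 3 to 4 reads each, 17 of them spread between 17268882 and 18093883 on chromosome 12, with a median distance of 3.67 Mb, over a region that holds Hpcal1, a neuronal calcium sensor gene, Odc1, Nol10 and Pdia6. Calls to other chromosomes were listed for 5 members, against 1.5% of all baits, and 87 of their 92 came from Gm16040. Abt1 shared a stretch of 50 identical bases with 4 of its 63 long-range fragments and Rasgrf1 with 2 of its 25, whereas Itgb1bp1, Fev and Foxd2 shared none with theirs. The part of such sequence in the calls was not tested.

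**Figure D5:**
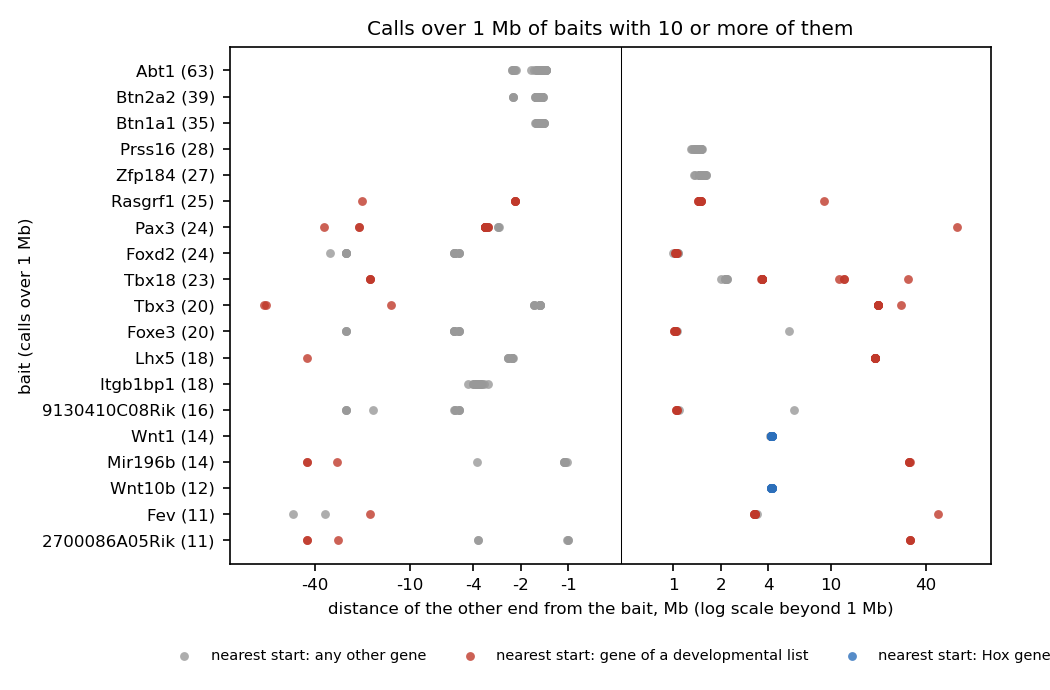
Calls over 1 Mb of 19 members with 10 or more of them, a row per member with the number of such calls, by signed distance from the bait (horizontal axis, Mb, log scale beyond 1 Mb) and coloured by the gene whose start is nearest to the called fragment. The calls of Wnt1 and Wnt10b gather on Hox genes at 4.19 and 4.20 Mb, whereas the calls of Abt1, Btn2a2, Btn1a1, Prss16 and Zfp184 have other genes nearest.

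Where the long calls ended was compared with all baits. Of the 178 member calls beyond 1 Mb that ended on a bait, 43 (24.2%) ended on one with a developmental gene, against 24.1% of such calls over all baits, so this share did not stand apart. Hox baits took 21 (11.8%, against 5.16%). With unbaited ends included and named by the nearest protein-coding start, 164 of 610 (26.9%) were developmental, against 32.2%, and beyond 10 Mb 57 of 112 (50.9%, against 46.5%). Up to 1 Mb it was 468 of 7425 (6.30%, against 4.93%). Hox genes formed a class of their own in this naming and are not in these shares. They were nearest for 49 of the 610 calls (8.03%, against 5.21%) and beyond 10 Mb for 25 of the 112 (22.3%, against 9.65%). Within the members, 93 of the 196 long calls of developmental members (47.4%) ended nearest to a developmental gene. For the other members it was 71 of 414 (17.1%). Hox genes were nearest for a further 24 of the 196 (12.2%) and 25 of the 414 (6.04%). Of those 414 calls, 192 came from the 5 members that flank the Hist1 clusters, and these 192 had other genes nearest. The lower share therefore rests in large part on a single region, and no such share was taken over all developmental baits.

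The Hi-C library, which did not enter the choice of members, was read through the list of bin pairs with more read pairs than expected, at an FDR under 0.05. Of the member calls up to 1 Mb, 1420 of 7425 (19.1%, 18.2 to 20.0%) fell within such a pair of 25-kb bins, against 11.6% over all calls, and these lay in 233 distinct bin pairs. The share was above that of all calls in each class of distance up to 1 Mb, from 13.6% against 10.9% under 25 kb to 31.9% against 13.5% between 500 kb and 1 Mb. Beyond 1 Mb, 482 of 610 (79.0%, 75.6 to 82.1%) fell within a listed pair of 1-Mb bins, against 59.4%, in 45 distinct pairs. All 192 long calls of the 5 Hist1-flanking members were among them, as were 23 of 25 (92%) of Itgb1bp1, Iah1 and Ywhaq and 144 of 196 (73.5%) of the developmental members. The remaining 197 calls gave 62.4% (55.5 to 68.9%), close to the share over all calls. They include 25 calls of Rasgrf1, of which 0 fell within a listed pair, so that the share without Rasgrf1 was higher. Beyond 10 Mb the members did not stand apart, with 82.1% against 81.8%.

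Member by member, the share of calls up to 1 Mb in a listed Hi-C pair ran from 0% for 54 members to 90.2% for Evx1, then 88.2% for Pax9 and 85.4% for Mir196b. The median was 8.08% for the compact members and 41.5% for the wide ones. Both Itgb1bp1, with 95 calls up to 1 Mb, and 4930479M11Rik, with 94, had 0 calls within a listed pair, although they were among the 10 baits with the most calls. Every other member of the loci of these baits also had 0, such as Iah1 with 59 calls and Arhgap33 with 74. Of the named contacts, Lhx5 with Tbx3 joined 25-kb bins with 85 Hi-C read pairs where 2.65 were expected, a ratio of 32.1. In 1-Mb bins, Itgb1bp1 with Hpcal1 gave 717 against 138.448 (5.18), Ly6g5b with Lonp1 364 against 87.523 (4.16) and Lhx5 with Uncx 412 against 113.669 (3.62). Fev with Pax3 gave 571 against 356.592 (1.60). Rasgrf1 with Tbx18, Pax2 with Nkx2-3 and Zic2 with Sox21 were not in the list. A pair of 1-Mb bins holds many fragments, so such a listing does not single out the 2 promoters.

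In GM12878, 91 of the 154 members had a same-symbol bait with at least 1 *cis* call. These had a median of 9 *cis* calls (6 to 11). The median was 4 over all 7868 mouse baits with such a match and 6 for those with 20 to 39 calls. Members without a match either lacked the symbol or had no call there, so these values describe called baits only. Species and cell type differ together here and cannot be told apart. Reaching 40 calls in GM12878 were 2 of the 91 (2.20%, against 1.41%), Gapdh with 84 and Hic1 with 45, and 24 reached 20 (26.4%, against 8.43%). Among the baits with 20 to 39 mouse calls, 3.02% (16 of 529) reached 40 and 18.3% reached 20, so at 40 calls the members did not stand above them. The 15 developmental members with a match had a median of 6, with 10 for Tbx3 and 2 for Foxd2. Of the others, Fev had 11 and Abt1 had 33. Of 728 member calls between named fragments with both symbols in GM12878, 249 (34.2%) were also called there, against 32.5% over all baits. Beyond 1 Mb it was 1 of 75 (1.33%), the pair of Abt1 with Hist1h2ah, against 11.1% over all baits.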

How the data were processed

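Mouse embryonic stem cell Capture Hi-C (2 biological replicates), GM12878 Capture Hi-C (3) and 1 mouse Hi-C library were analysed from the deposited lists. The authors mapped reads to mm9 or hg19 with HiCUP (Bowtie 1.1.0 in the submitters' processing notes) and ran CHiCAGO on the replicates together. The deposited score is a soft-thresholded log of a weighted p-value, listed from 5 upwards, and the reads beside it are the authors' weighted mean. The deposited Hi-C lists (HOMER 4.7 in the same notes) give counts of read pairs, the signal expected from coverage and distance, and an FDR from the p-values. These lists do not give library depth, and 10 of their columns were not used.

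Baits were counted by their *cis* calls as bait, with distances between fragment midpoints. HindIII fragments, gene starts and upstream windows came from mm9 and the GENCODE M1 annotation, and all 52640 listed fragments matched the digest. A call fell within a Hi-C pair when its fragments overlapped the 2 bins. GM12878 baits with at least 1 *cis* call were matched by symbol in capitals. Intervals are Wilson 95% for shares and order-statistic 95% for medians. Scripts were tested on simulated calls and run with Python 3.11.15, pandas 2.3.3, NumPy 2.4.6, SciPy 1.17.1 and Matplotlib 3.10.9.

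Members and gene lists were chosen with earlier results of these data known. By rule, every member was named except 3 that are not reported here, with values for the 10 with most calls, the widest and narrowest stretches, the 3 highest shares on each side, the 5 most shared fragments with ties, the 5 top scores, the 5 longest member pairs, the baits with 40 or 39 calls and examples of the gene lists. Other contacts were picked after their values were seen. The alternatives tried were score and read minimums, other thresholds, the browser list and other definitions of stretch, side, bin and FDR.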

Additional observations from a re-analysis of the deposited data

Results flagged for a closer look

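Trans-chromosomal calls, which no comparison used, were concentrated at a single member. Gm16040 on chromosome 11 had 87 of the 92 trans calls of the members, while Mir196a-2 had 2 and Lhx5, Pax2 and Wnt10b had 1 each, and 1.5% of all baits had any. All 87 ended within chromosome 8, 95325872 to 96337763, in the region of the carboxylesterase genes Ces1a, Ces1d, Ces1e, Ces1f, Ces1g and Ces1h and of Gnao1 and Slc6a2. They rested on 3 to 243 reads with a median of 5, and the highest score was 2252.5. The Gm16040 bait shared no stretch of 50 identical bases with any of the 87 fragments in the mm9 sequence.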

How the results depend on the processing

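Of 56 recomputed values, 17 moved by less than their interval or 1.5 times and 39 moved further. The cause was not tested. With a score of at least 10, 8 baits reached 40 calls (Abt1, SNORD121A.1, Itgb1bp1, Fev, 4930479M11Rik, Gm17649, Mir196a-2 and Btn2a2), and the original members had a median of 14 calls, a stretch of 320.136 kb, 39.6% on 1 side, 25.2% on baits, 35.4% of fragments shared, 35.4% in 25-kb Hi-C pairs and 3 calls in GM12878. With at least 10 reads, the values were 73 baits, 39 calls, 369.544 kb, 24.2% on baits, 37.3% shared and 22.6% in 25-kb Hi-C pairs. The browser list, which joins both directions of a pair, gave 249 baits, 54 calls, 559.244 kb, 28.9% on baits and 17.9% in 25-kb pairs. A threshold of 30 calls gave 350 baits, a median of 38, 23.9% on baits, 38.4% shared and 72.1% in 1-Mb pairs, and a threshold of 50 gave 65, 60, 18.3%, 35.7% and 83.8%, with 15.7% in 25-kb pairs. Calls under 1 Mb alone gave a median of 45 and 466.106 kb. Runs counted as 1 gave 25 runs and 13.0% on 1 side. The full range was 969.288 kb and the stretch of 80% of calls 406.43 kb, 25-kb bins gave 48.1% shared, a limit of 90% left 5.19% on 1 side, and an FDR of 0.01 gave 17.1% in 25-kb pairs. No paired analysis was possible because the replicates of each cell type were called together, and for the same reason no replicate could be left out.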
